A study of Homo sapiens with 21 samples.

Results

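The early transcriptional response of OCI-AML5 cells to UM171 was measured by comparing 3 libraries of cells exposed to UM171 for 6 h with 3 libraries of cells kept in DMSO, the vehicle. These are 6 of the 21 libraries of the series, chosen by their labels and not by any measured value. OCI-AML5 is an established human acute myeloid leukemia cell line, so all libraries come from a single line, and the labels do not state whether the libraries of a group are separate cultures. The p-values therefore measure only the spread between libraries within groups, which may be technical. That spread was estimated from the 15 libraries of the time course fitted together. By the labels UM171 was used at 500 nM (the study's text gives a lower dose) in DMEM with serum, and poly(A) RNA was sequenced with a stranded kit. The labels give the DMSO libraries a time of 72 h, whereas the study's supplement places them at the start of the time course. The 6 h and DMSO libraries may thus differ in time in culture as well as in UM171, and the contributions of time and compound cannot be told apart in this comparison. The cells were not edited at PROCR. The labels name no guide RNA for these libraries, while the study's supplement lists the DMSO libraries as cells carrying a control guide.

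UM171 is a small molecule that expands human hematopoietic stem cells in culture. It is known to make the ubiquitin ligase adaptor KBTBD4 destroy the CoREST complex, in which the demethylase LSD1 and the histone deacetylases HDAC1 and HDAC2 keep genes silent together with DNA-binding repressors such as GFI1. The earliest time point shows which transcripts were already different within hours of exposure. Cholesterol supply follows a different logic. When sterols are scarce, SREBP proteins enter the nucleus and drive the enzymes of sterol synthesis, and when sterols are plentiful INSIG1 and its partners hold SREBP back.

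Expected counts summed to between 33.6 and 38.3 M per library in DMSO and between 25.9 and 37.6 M at 6 h. Mitochondrially encoded genes took 7.77% to 9.39% of the counts in DMSO and 8.42% to 10.14% at 6 h. In DMSO 14881 to 15167 genes had at least 10 counts, and at 6 h 15476 to 16157 did, although the 6 h libraries were not deeper. In both groups replicate 1 stood apart from the other two. In a chi-square comparison of counts over genes, the statistic per degree of freedom was 9.34 and 8.33 between DMSO replicate 1 and the others against 2.97 between those, and 8.27 and 6.76 against 1.76 at 6 h. Without DMSO replicate 1 the calls described in the next paragraph were 966 higher and 40 lower genes, and without replicate 1 at 6 h they were 952 and 46. The myeloid identity of the line was visible in both groups. CD33, a surface receptor of myeloid cells, lay at 177 to 179 TPM in DMSO and 166 to 172 TPM at 6 h, and LYZ (lysozyme) at 650 to 766 and 907 to 985 TPM. PTPRC (CD45) lay at 159 to 166 and 147 to 181 TPM, whereas MPO, the enzyme of primary granules, stayed at 2.65 to 2.74 and 3.38 to 5.06 TPM. Of 19 lymphoid markers 14 were under 1 TPM in all 6 libraries, with EBF1, LCK, MS4A1 and VPREB1 at 0, and the summed level of the list was 47.1 to 50.4 TPM in DMSO and 63.0 to 66.2 TPM at 6 h. The largest part of it was NCAM1, at 16.9 to 20.1 and 30.7 to 31.5 TPM. Of 15 stromal and epithelial markers 14 were under 1 TPM and 6 were at 0, and the list summed to 42.6 to 46.9 and 43.2 to 44.8 TPM, nearly all of it PECAM1. Of 27 erythroid and megakaryocyte genes 22 were under 1 TPM, with GATA1, HBB and PF4 at 0, and the list summed to 175 to 188 and 121 to 132 TPM, mostly the transferrin receptor TFRC.

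After 6 h the response was almost entirely upward. Of 16575 genes tested, 1124 were higher (6.78%) and 41 lower (0.247%), or 7.03% in either direction. A gene was called when it changed by more than 2-fold with an adjusted p under 0.0001 in edgeR's quasi-likelihood test on rounded expected counts, with Benjamini-Hochberg adjustment over all genes tested. Of the 1124 higher genes 335 changed by over 4-fold and 109 by over 8-fold, while none of the 41 lower genes passed 4-fold. The TPM ranges of the 3 libraries against 3 did not overlap for 1116 of the higher genes and for all 41 lower genes. Over all genes tested, ranges did not overlap for 42.4% upward and 17.3% downward, so a lack of overlap by itself was common here. At an adjusted p under 0.05 with no minimum change, 31.8% of genes were higher and 30.3% lower. With the TMM scaling used here the excess of rises thus lay among the larger changes. This near-even split depends on the scaling, which sets where the median change lies. At the same limit 6367 genes were higher and 3695 lower with upper quartile scaling, and 7427 and 2443 with total count scaling. With offsets that removed each library's trend with expression level, a setting added after seeing the data, 623 genes were higher and 131 lower, which lowers the share of rises from 96.5% to 82.6%.

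**Figure D1:**
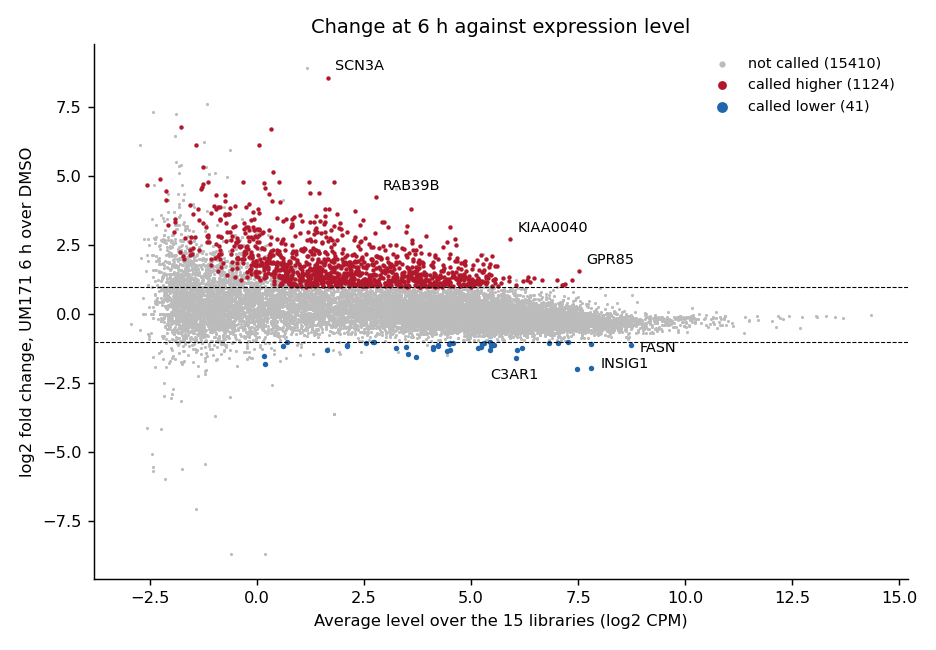
Each point is 1 of 16575 genes, with its average level over the 15 libraries of the time course in log2 CPM (counts per M) on the x axis and its log2 fold change of UM171 6 h over DMSO on the y axis. The dashed lines mark 2-fold, and the 1124 red points (called higher) thin out to the right, where the cloud of grey points sits below 0.

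The rises came from weakly expressed genes. A higher gene had a median of 0.86 TPM in DMSO and 2.86 TPM at 6 h, and 605 of the 1124 were under 1 TPM in DMSO. A lower gene had a median of 21.4 TPM in DMSO and 11.3 TPM at 6 h. By mean TPM in DMSO, 662 of the genes tested lay under 0.1 TPM and 2954 between 0.1 and 1 TPM. Of these 18.1% and 16.5% were called higher and 0 lower. The higher share was 10.8% between 1 and 10 TPM and 0.316% between 10 and 100 TPM. DMSO is also a side of the comparison, so a low level there favours a rise and leaves little room for a fall. Part of the contrast between higher and lower genes in DMSO level follows from this. Summed over all higher genes the mean level was 2153 TPM in DMSO and 6213 TPM at 6 h, and summed over the lower genes it was 1729 and 872 TPM. By mean TPM over the 15 libraries, the higher share was 8.99% among 2880 genes between 0.1 and 1 TPM, 15% among 4770 genes between 1 and 10 TPM, 1.95% among 7394 genes between 10 and 100 TPM, and 0 among 1384 genes over 100 TPM. The median log2 fold change over all genes of a class fell in the same order, from 0.59 through 0.31 and -0.11 to -0.25. A total count scaling moves these medians up, since the median over all genes is 0.02 with the TMM scaling used here, 0.12 with upper quartile and 0.20 with total count scaling. For the same reason TPM and fold changes can part by about this much. MYC lay at 681, 690 and 692 TPM in DMSO and at 756, 737 and 725 TPM at 6 h, yet its log2 fold change was -0.11 (SE 0.07, adjusted p = 0.19). In some genes the 2 measures parted by more, for reasons that were not tested. TNFRSF9 went from a mean of 0.223 TPM in DMSO to 0.51 TPM at 6 h, while its change in the fit of counts was 3.49-fold. Base composition moved with the calls as well. The median GC content of the transcript was 45.1% for higher genes, 58.7% for lower genes and 47.8% for all, and with offsets on GC content 948 genes were higher and 44 lower, of which 922 and 29 were also called without them.

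**Figure D2:**
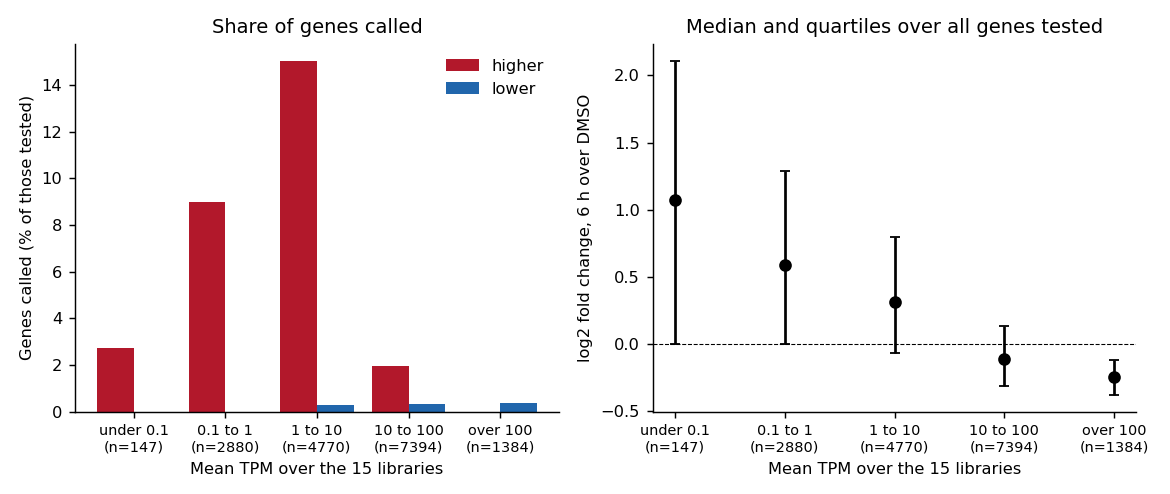
Left, the share of tested genes called higher (red) and lower (blue) in 5 classes of mean TPM over the 15 libraries, with the number of genes tested under each class. Right, the median log2 fold change of UM171 6 h over DMSO in the same classes with the quartiles as bars, which falls from 1.07 in the lowest class to -0.25 in the highest.

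By gene type, 910 of 13054 protein-coding genes were higher (6.97%) and 38 lower. Of 2100 long noncoding RNA genes 153 were higher (7.29%) and 1 lower, and their median log2 fold change was 0.42, against -0.03 for protein-coding genes. Long noncoding RNAs took 0.95% to 0.96% of the counts in DMSO and 1.13% to 1.14% at 6 h. Of 452 tested genes named as antisense RNAs 53 were higher (11.7%, against 6.78% of all genes). The summed level of that family was 1938 to 1999 TPM in DMSO and 2691 to 2800 TPM at 6 h. The strand setting of the counting is not given in the sources used here, so reads of an antisense RNA and of its partner may not be fully separated.

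Most transcripts of the complex that UM171 acts on moved by less than 2-fold, as most genes did. Of 17 tested members and partners of LSD1-CoREST, 1 was called higher (5.88%, near the 6.78% of all genes). None was called lower (0.247% of all genes were), and their median log2 fold change was -0.11 (0.07 with total count scaling). KDM1A, which encodes LSD1, lay at 72.8, 75 and 71.7 TPM in DMSO and at 74.4, 75.8 and 76.0 TPM at 6 h, with overlapping ranges (log2 fold change -0.10, SE 0.03, adjusted p = 0.017). RCOR1, the main CoREST scaffold, was at 48.8, 45.6 and 44 TPM against 36.1, 34.1 and 34.7 TPM (log2 fold change -0.53, SE 0.03, adjusted p = 7.0e-10), short of 2-fold. KBTBD4 itself was at 16.8, 15.5 and 14.8 TPM against 13.4, 13.5 and 14.2 TPM (log2 fold change -0.31, SE 0.05, adjusted p = 9.1e-05), and its cullin partner CUL3 had a log2 fold change of -0.34. GFI1, a repressor that recruits the complex, overlapped between groups at 147 to 164 and 142 to 160 TPM. RCOR2, a CoREST paralog expressed at a low level, was the member called. It rose from 0.22, 0.51 and 0.29 TPM to 0.90, 0.97 and 0.94 TPM (log2 fold change 1.51, SE 0.22, adjusted p = 1.2e-05). PHF21A (BHC80, a histone reader of the complex) had a log2 fold change of 0.55 (SE 0.11) and the repressor SNAI1 of 1.08 (SE 0.25, adjusted p = 0.0011), and neither passed both limits. HDAC1, HDAC2, RCOR3, HMG20B, GSE1, ZMYM2, ZMYM3 and MIER1 lay between -0.46 and 0.29 on the log2 scale.

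Among called genes above a log2 CPM of 2, RAB39B had the largest log2 fold change. This gene, on the X chromosome from 155258235 to 155264491 of GRCh38 on the minus strand, encodes a neuronal RAB GTPase of vesicle traffic. It was at 0.14, 0.18 and 0.24 TPM in DMSO and at 3.53, 4.11 and 4.28 TPM at 6 h, an 18.9-fold change (log2 fold change 4.24, SE 0.15, adjusted p = 2.2e-12, edgeR). TESPA1, a signalling protein of developing thymocytes, followed with 0.57, 0.28 and 0.63 TPM against 7.22, 6.68 and 5.98 TPM (log2 fold change 3.8, SE 0.17). SCHIP1 was at 2.16, 0.82 and 0.54 TPM against 11.5, 6.38 and 9.17 TPM (log2 fold change 3.75, SE 0.28), and it overlaps a readthrough gene whose reads the counting may share with it. The libraries at 6 h exceeded every DMSO library for each of these 3 genes, which the rule for naming them required. CD22, an inhibitory receptor of B cells, went from 0.11, 0.20 and 0.04 TPM to 0.94, 1.16 and 0.84 TPM (log2 fold change 3.35, SE 0.33), on at most 3 counts in any DMSO library, and was at least 9.06-fold above a floor of 3 counts per library. FSD1, LGALSL, SYNPO (an actin-binding protein), ATP10D (a lipid flippase) and JAKMIP2 were also among the 10 largest rises, with log2 fold changes between 3.14 and 3.41. KIAA0040, named here after its values were seen, combined a large change with a moderate level, from 3.23, 2.62 and 4.83 TPM to 24.1, 23.5 and 25.1 TPM (log2 fold change 2.73, SE 0.06, adjusted p = 3.4e-14).

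**Figure D3:**
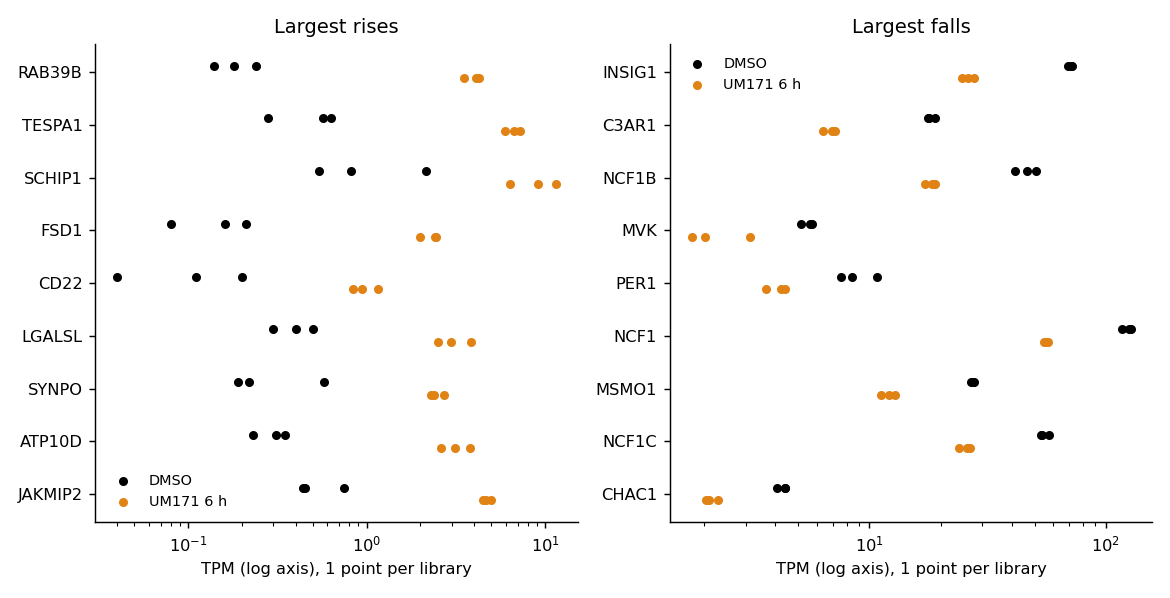
TPM of every library on a log axis, with 1 point per library, black for DMSO and orange for UM171 6 h. Left, 9 of the 10 genes with the largest rises, RAB39B at the top, and right, 9 of the 10 with the largest falls, INSIG1 at the top. In each gene the 3 orange points lie outside the range of the 3 black ones, which is how these genes were chosen.

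Fewer of the called genes had large gains in TPM, which is a share of a fixed sum and not an amount of RNA. Among called genes MT1E, a metallothionein that binds zinc and copper, gained most TPM, from 52.2, 59.1 and 55.6 TPM to 150, 151 and 148 TPM (log2 fold change 1.25, SE 0.08, adjusted p = 7.0e-10). Metallothionein genes are close copies of each other, so its level depends on how the counting split shared reads. GPR85, an orphan receptor best known in brain, rose from 36.8, 34.4 and 34.5 TPM to 106, 113 and 104 TPM (log2 fold change 1.55, SE 0.05). CD84, a SLAM family receptor, rose from 33.5, 31.3 and 33.2 TPM to 78.6, 73.2 and 70.0 TPM (log2 fold change 1.06, SE 0.04). SEC24D, a coat protein of vesicles leaving the endoplasmic reticulum, had a log2 fold change of 1.05 (SE 0.03) and LACTB2, a mitochondrial nuclease, of 1.29 (SE 0.08). No gene over 100 TPM on average rose by 2-fold.

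Genes that stand for the inflammatory and the protective side of the UM171 response gave different pictures at 6 h. PROCR and CD86 were called, and IL1B and SOD1 were not. PROCR encodes EPCR, the receptor of protein C. It had 100, 121 and 105 counts in DMSO and 341, 345 and 266 at 6 h, or 3.37, 4.30 and 3.38 TPM against 10.3, 13.3 and 11.9 TPM (log2 fold change 1.54, SE 0.10, adjusted p = 1.1e-09). CD86, a costimulatory ligand of antigen-presenting cells, was at 1.62, 1.55 and 1.96 TPM against 3.94, 4.38 and 4.86 TPM (log2 fold change 1.22, SE 0.10, adjusted p = 3.8e-08). The cytokine gene IL1B was at 5.62, 5.39 and 5.77 TPM against 10.7, 11.9 and 12.6 TPM without overlap, but its 1.84-fold change stayed under 2-fold (log2 fold change 0.88, SE 0.10, adjusted p = 6.3e-07). Its mean TPM, 5.59 in DMSO and 11.7 at 6 h, did pass 2-fold, so this miss depends on the scaling. SOD1, the cytosolic superoxide dismutase, was at 122, 138 and 137 TPM against 149, 154 and 150 TPM, with a log2 fold change of 0.02 (SE 0.06, adjusted p = 0.77).

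Promoters are shown for 4 of the higher genes described here, as examples of the sequence in which motifs were searched. They are not a representative sample. Of the higher genes that met the naming rules and had a promoter entry, only TNFRSF9 and CXCL3 held the NF-kB motif. It stood in 2.34% of the promoters of higher genes and in 1.36% of all. The 250 bases before the RefSeq start of PROCR, GPR85, TNFRSF9 and CXCL3 are given 5′ to 3′ from GRCh38.p14. Capitals mark matches to the AP-1, NF-kB, CRE, CEBP, E-box, GFI1 core, TATA and CCAAT motifs on either strand. PROCR lies on chromosome 20 (chr20:35171822-35172071, plus strand), and its capitals are TATA-like letters on the minus strand. GPR85 (chr7:113087725-113087974, minus strand) holds the GFI1 core AAATCA at 220 bases and CCAAT boxes at 128 and 81 bases before the start. TNFRSF9 (chr1:7940840-7941089, minus strand) and CXCL3 (chr4:74038690-74038939, minus strand) each hold an NF-kB motif that reads on both strands at overlapping positions, and TNFRSF9 also holds a GFI1 core and an AP-1 motif.
PROCR: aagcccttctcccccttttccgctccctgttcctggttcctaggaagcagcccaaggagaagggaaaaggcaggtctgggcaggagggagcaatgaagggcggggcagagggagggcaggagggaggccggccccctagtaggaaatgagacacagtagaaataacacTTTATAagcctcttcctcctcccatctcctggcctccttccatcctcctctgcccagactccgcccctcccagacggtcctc
GPR85: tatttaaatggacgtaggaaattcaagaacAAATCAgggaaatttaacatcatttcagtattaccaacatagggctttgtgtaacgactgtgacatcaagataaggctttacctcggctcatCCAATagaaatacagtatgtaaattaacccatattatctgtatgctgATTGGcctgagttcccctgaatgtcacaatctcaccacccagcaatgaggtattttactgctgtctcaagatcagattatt
TNFRSF9: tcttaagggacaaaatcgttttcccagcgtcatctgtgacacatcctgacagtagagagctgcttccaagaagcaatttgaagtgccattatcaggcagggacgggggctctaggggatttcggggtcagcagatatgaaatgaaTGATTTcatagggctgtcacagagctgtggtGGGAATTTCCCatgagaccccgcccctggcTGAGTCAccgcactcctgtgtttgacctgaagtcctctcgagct
CXCL3: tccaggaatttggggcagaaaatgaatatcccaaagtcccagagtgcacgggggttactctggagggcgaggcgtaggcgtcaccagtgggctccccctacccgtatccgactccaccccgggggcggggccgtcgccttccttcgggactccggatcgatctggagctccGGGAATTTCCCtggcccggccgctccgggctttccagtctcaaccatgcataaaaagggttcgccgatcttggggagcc

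Interferon-stimulated genes moved in part. These antiviral genes are induced by type I interferon, and 9 of 32 tested rose (28.1%, against 6.78% of all genes). None was called lower, 6 were lower at an adjusted p under 0.05 with no minimum change, and the median log2 fold change was 0.55. USP18, which dampens interferon receptor signalling, rose from 0.42, 0.68 and 0.57 TPM to 2.82, 3.21 and 3.50 TPM (log2 fold change 2.34, SE 0.18, adjusted p = 8.0e-09). The neighbouring OAS1, OAS3 and OAS2, sensors of double-stranded RNA on chromosome 12, rose with log2 fold changes of 2.28, 2.33 and 1.83. RSAD2 (viperin), IFI44, SAMD9L, IFIT5 and HERC5 rose by 1.05 to 1.78. Other classic members did not follow. ISG15 lay at 9.94, 13.2 and 11.4 TPM against 9.70, 13.2 and 11.5 TPM, with overlapping ranges. IFIT1, IRF7 and IFIT3 had log2 fold changes of 0.43, -0.46 and -0.36.

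The interleukin-1 family and inflammasome list had 5 of 18 tested genes called higher (27.8%, against 6.78% of all genes) and none called lower, with a median log2 fold change of 0.54. The cytokine IL18 rose from 0.13, 0.04 and 0.15 TPM to 1.30, 0.69 and 0.85 TPM (log2 fold change 3.03, SE 0.35). Its receptor chain IL18R1 rose from 0.94, 1.26 and 1.16 TPM to 7.48, 6.91 and 7.84 TPM (log2 fold change 2.48, SE 0.11), and the second chain IL18RAP from 16.3, 14.4 and 13.2 TPM to 38.7, 33.9 and 39.8 TPM (log2 fold change 1.13, SE 0.06). This ligand and both chains of its receptor were higher in every 6 h library than in any DMSO library, as were 42.4% of all genes tested. The inflammasome sensor NLRC4 rose from 0.20, 0.17 and 0.16 TPM to 1.45, 1.8 and 1.78 TPM (log2 fold change 3.28, SE 0.20), and NLRP1 by 1.18 on the log2 scale. NLRP3 and IL1RN, the antagonist of the interleukin-1 receptor, had log2 fold changes of -0.47 and -0.44, and CASP1 of 0.80, none of them past 2-fold.

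Of 19 tested Toll-like receptor and adaptor genes, which sense microbial products, 4 were called higher (21.1%, against 6.78% of all genes) and none lower. At an adjusted p under 0.05 with no minimum change 9 were higher and 4 lower. TLR3, which detects double-stranded RNA, rose from 0.13, 0.08 and 0.09 TPM to 2.12, 1.70 and 1.14 TPM (log2 fold change 4.0, SE 0.24, adjusted p = 4.9e-10). TLR5, the flagellin receptor, rose by 2.63 and LY96, the partner of TLR4, by 2.31, while the adaptor TICAM2 rose by 1.21 and overlaps a readthrough gene. The list's median log2 fold change of 0.73 was 0.12 in a fit of the 6 libraries alone.

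Transcripts of NF-kB and of the immediate early factors, which report fresh signalling, were called higher about as often as all genes. Of 22 tested NF-kB subunits, inhibitors and feedback genes only BIRC3, an inhibitor of cell death induced by NF-kB, was called (4.55%, against 6.78% of all genes). It rose from 0.24, 0.22 and 0.23 TPM to 0.97, 1.81 and 1.2 TPM (log2 fold change 1.91, SE 0.19). NFKBIA, the inhibitor that NF-kB itself induces, lay at 20.1, 22.8 and 22.1 TPM against 18.2, 21.1 and 20.5 TPM (log2 fold change -0.35, SE 0.07), and TNFAIP3 had a log2 fold change of 0.27 (SE 0.09). The list's median log2 fold change was -0.16 (0.02 with total count scaling). At an adjusted p under 0.05 with no minimum change 4 of the list were higher and 11 lower, against 31.8% and 30.3% of all genes. Among 23 tested immediate early genes 2 were called higher (8.7%) and 1 lower (4.35%, against 0.247% of all genes). At an adjusted p under 0.05 with no minimum change 3 were higher and 10 lower. EGR1 rose from 1.82, 1.96 and 2.03 TPM to 7.57, 6.85 and 7.37 TPM (log2 fold change 1.74, SE 0.17) and BATF3 by 1.42. FOS fell from 27.9, 36.2 and 32.0 TPM to 19.1, 18.1 and 15.7 TPM (log2 fold change -1.03, SE 0.07, adjusted p = 1.3e-09). JUN lay at 25.3, 29.1 and 29.8 TPM against 29.7, 32.2 and 30.4 TPM, and JUNB had a log2 fold change of -0.62 (SE 0.07). Of 21 tested genes of the TNF superfamily 2 were called higher (9.52%). TNFRSF9 (4-1BB), whose promoter is printed above, rose from 0.17, 0.40 and 0.10 TPM to 0.41, 0.45 and 0.67 TPM (log2 fold change 1.8, SE 0.20), and TNFSF4 (OX40 ligand) rose by 1.48. Of 17 tested genes on the list of chemokines and their receptors CXCL3 was the member called (5.88%), from 0.58, 0.52 and 0.60 TPM to 1.94, 1.79 and 1.88 TPM (log2 fold change 1.60, SE 0.21). The chemokine CXCL6 (log2 fold change 3.19) and the chemokine receptor ACKR2 (2.69), which are not on the list and were named after their values were seen, also passed both limits.

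Some leukocyte surface receptors rose. Of 25 tested C-type lectins, LILR, SIGLEC and SLAM receptors 5 were higher (20%, against 6.78% of all genes). All 5 belong to the SLAM family, whose members bind each other between blood cells. SLAMF6 had a log2 fold change of 2.44 (SE 0.40), LY9 of 1.77, SLAMF1 of 1.40, SLAMF7 of 1.36 and CD84 of 1.06. SLAMF6, CD84 and SLAMF1 are consecutive among the tested genes on chromosome 1, between 160485030 and 160647044. Of 16 tested costimulatory and checkpoint ligands, CD274 (PD-L1) rose from 0.08, 0.13 and 0.07 TPM to 0.47, 0.84 and 1.18 TPM. It had at most 3 counts in any DMSO library and 32 to 39 at 6 h, at least 13-fold above a floor of 3 counts per library. CD86 and TNFSF4 were the other members called, for a share of 18.8%. Of 21 tested leukocyte integrins and adhesion molecules 4 were higher (19%), ITGA2, ITGA1 and ICAM2 among them. The collagen-binding integrin chain ITGA2 rose from 0.48, 0.51 and 0.66 TPM to 2.13, 2.19 and 2.04 TPM (log2 fold change 1.93, SE 0.13). Of 15 tested genes of coagulation and protease receptors, PROCR, F5 (coagulation factor V) and F2R (the thrombin receptor) were higher (20%). F2R was the most even of them, at 9.25, 9.20 and 9.28 TPM against 23.1, 22.8 and 23.1 TPM (log2 fold change 1.21, SE 0.05).

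Genes of antigen presentation gave single calls. ERAP2, the peptidase that trims peptides for MHC class I, rose from 2.21, 2.51 and 2.19 TPM to 7.99, 8.40 and 8.78 TPM (log2 fold change 1.66, SE 0.07) as the only call among 17 tested (5.88%, against 6.78% of all genes). HLA-DMB, which helps load MHC class II, rose from 4.47, 3.82 and 3.91 TPM to 9.73, 10.5 and 9.93 TPM (log2 fold change 1.09, SE 0.10) as the only call among 12 tested (8.33%). A run of 5 consecutive tested genes on chromosome 6 (26365159 to 26453415) was higher, namely BTN3A2, BTN2A2, BTN3A1, BTN2A3P and BTN3A3, butyrophilins that regulate T cells. BTN3A3 changed most, from 0.86, 1.22 and 1.13 TPM to 6.24, 5.48 and 5.77 TPM (log2 fold change 2.51, SE 0.10). These genes are related copies, so part of their reads may be shared.

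Some stem cell and homeobox genes rose. Of 14 tested stem and progenitor genes MEIS1, PROCR and MLLT3 were called higher (21.4%, against 6.78% of all genes) and none was called lower. At an adjusted p under 0.05 with no minimum change 9 were higher and 4 lower, and the summed level of the list was 918 to 928 TPM in DMSO and 814 to 826 TPM at 6 h. MEIS1, a partner of HOX proteins in leukemia and stem cells, rose from 2.03, 1.88 and 1.89 TPM to 6.16, 5.19 and 6.70 TPM (log2 fold change 1.76, SE 0.11, adjusted p = 6.9e-10). MLLT3, which maintains human hematopoietic stem cells in culture, rose from 8.62, 9.05 and 9.65 TPM to 22.9, 24.8 and 25.7 TPM (log2 fold change 1.23, SE 0.06). Of 13 tested HOX genes 4 were called higher (30.8%, against 6.78% of all genes). At an adjusted p under 0.05 with no minimum change 10 were higher and none lower, against 31.8% and 30.3% of all genes. The summed level of the family was 71.8 to 76.2 TPM in DMSO and 123 to 126 TPM at 6 h. HOXA7 rose from 1.08, 1.26 and 1.06 TPM to 7.07, 5.93 and 7.87 TPM (log2 fold change 2.37, SE 0.13), and HOXB5, HOXA5 and HOXB7 by 2.61, 2.26 and 1.60. HOXA9, the most abundant of those named, was at 16.7, 18.3 and 14.9 TPM against 31.4, 31.8 and 30.7 TPM, a log2 fold change of 0.72 (SE 0.09) under the 2-fold limit. Among 31 tested myeloid transcription factors TCF4 (log2 fold change 1.53, SE 0.06) and ZEB1 (1.05, SE 0.10) were higher (6.45%, near the share of all genes), and the median of the list was -0.24. SPI1 (PU.1) was at 426, 403 and 421 TPM against 313, 288 and 303 TPM, a log2 fold change of -0.63 (SE 0.07). CEBPA had a log2 fold change of -0.68 (SE 0.10).

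Cadherins and voltage-gated channels were weakly expressed, and a larger share of them was called higher than the 6.78% of all genes. The share of all genes depended on level. Between 0.1 and 1 TPM it was 16.5% by the mean in DMSO and 8.99% by the mean over the 15 libraries. Of 29 tested protocadherins and cadherins 10 were higher (34.5%), with a median log2 fold change of 1.47, and the family summed to 15.4 to 16.1 TPM in DMSO and 33.4 to 37.4 TPM at 6 h. Clustered protocadherins share their last exons, so the split of reads among them is uncertain. Of 16 tested voltage-gated sodium and calcium channel genes 6 were higher (37.5%). Of the neuronal genes known as REST-CoREST targets only 13 of 34 could be tested. SYP (synaptophysin) was the member called (7.69%, near the share of all genes), from 0.42, 0.68 and 0.54 TPM to 1.42, 1.33 and 1.10 TPM (log2 fold change 1.12, SE 0.19). At an adjusted p under 0.05 with no minimum change 7 of the 13 were higher and 1 lower, against 31.8% and 30.3% of all genes.

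In other lists 1 or 2 members rose, 3.33% to 15.4% of those tested, against 6.78% of all genes. SLC40A1 (ferroportin, the exporter of iron) rose from 1.06, 1.09 and 1.05 TPM to 5.66, 6.10 and 5.83 TPM (log2 fold change 2.43, SE 0.10). MS4A7, a macrophage surface protein, rose by 1.40, PDE4B, which degrades cAMP, by 1.81, the cAMP-dependent kinase subunit PRKACB by 1.17, PFKM, the muscle form of phosphofructokinase, by 1.34, and TET1, which oxidizes methylcytosine, by 1.97. HPGD, which inactivates prostaglandins, and SLC18A2, which loads histamine into granules, rose from at most 0.05 and 0.03 TPM in DMSO to 0.14 to 0.38 and 0.23 to 0.33 TPM. SERPINB10, a myeloid serpin, rose by 1.29 and BCL2L2, a survival protein, by 1.2.

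Some transcripts appeared from near silence. Of the higher genes 51 had at most 3 counts in every DMSO library, of which 38 were protein-coding and 8 were long noncoding RNAs. Genes this low in DMSO passed the filter on counts only through UM171 libraries, at 6 h or later, so the choice itself favoured rises. Of 662 tested genes under 0.1 mean TPM in DMSO, 18.1% were called higher, and their median log2 fold change was 1.8. Against a floor of 3 counts per library, which covers counting error only, RLN2 (relaxin) was at least 7.47-fold higher, EPHX4 (an epoxide hydrolase) at least 15-fold, the T cell receptor gamma segment TRGV3 at least 5.66-fold and LINC03047 at least 5.36-fold. EPHX4 had 34 to 47 counts per library at 6 h and RLN2 20 to 21. The levels of these 4 genes stayed low, between 1.39 and 1.65 mean TPM at 6 h. SCN3A, a neuronal sodium channel named after its values were seen, had 0 counts in all DMSO libraries and 35 to 51 at 6 h, at least 16.3-fold above the floor. AREG (amphiregulin, a ligand of the EGF receptor), also named after its values were seen, was at least 9.33-fold higher.

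Genes of cholesterol metabolism were prominent among the 41 lower genes. Of 27 tested genes of that list 4 fell (14.8%, against 0.247% of all genes), none was called higher, 21 were lower and 3 higher at an adjusted p under 0.05, and the median log2 fold change was -0.48. This median was -0.30 with total count scaling and -0.38 with upper quartile scaling. INSIG1, the sterol sensor's anchor and itself a target of SREBP, fell from 69.0, 71.7 and 70.9 TPM in DMSO to 27.6, 26.2 and 24.5 TPM at 6 h (log2 fold change -1.95, SE 0.06, adjusted p = 1.9e-13). The kinase MVK fell from 5.62, 5.15 and 5.70 TPM to 1.77, 2.02 and 3.11 TPM (log2 fold change -1.45, SE 0.16), and the sterol methyl oxidase MSMO1 from 27.8, 26.8 and 27.4 TPM to 12.1, 11.2 and 12.8 TPM (log2 fold change -1.30, SE 0.07). In each of these 3 genes all 6 h libraries were below all DMSO libraries, which the rule for naming them required.

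Most other enzymes of the pathway shifted in the same direction by less. SQLE, the squalene epoxidase, had a log2 fold change of -0.86 (SE 0.06), IDI1 of -0.68, HMGCS1 of -0.65, MVD of -0.64, NSDHL of -0.53 and FDFT1 of -0.51. The exporter ABCA1, which responds to sterol excess, had -0.73 (SE 0.06), while the exporter ABCG1 had 0.44 (SE 0.10) and the carrier STARD4 0.33 (SE 0.08). PMVK, EBP and TM7SF2 lay between -0.12 and 0.11 with adjusted p of 0.30 to 0.86. SREBF1 and SREBF2, which encode SREBP, had -0.55 (SE 0.09) and -0.19 (SE 0.04). FASN, the fatty acid synthase that SREBP also drives, fell from 121, 127 and 135 TPM to 68.4, 69.4 and 70.2 TPM (log2 fold change -1.12, SE 0.06), and PCYT2, of phosphatidylethanolamine synthesis, by 1.14.

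Later levels were higher than at 6 h. INSIG1 had mean levels of 70.4, 203 and 226 TPM after 24, 48 and 72 h of UM171, and MSMO1 of 29.7, 80.9 and 99.3 TPM. These later groups share the DMSO libraries with the 6 h comparison, so the levels are given side by side without a test. In 3 libraries of PROCR-edited cells in DMSO, labelled 24 h, INSIG1 was at 50, 126 and 121 TPM, the first of them with a mitochondrial share of 35.93%.

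**Figure D4:**
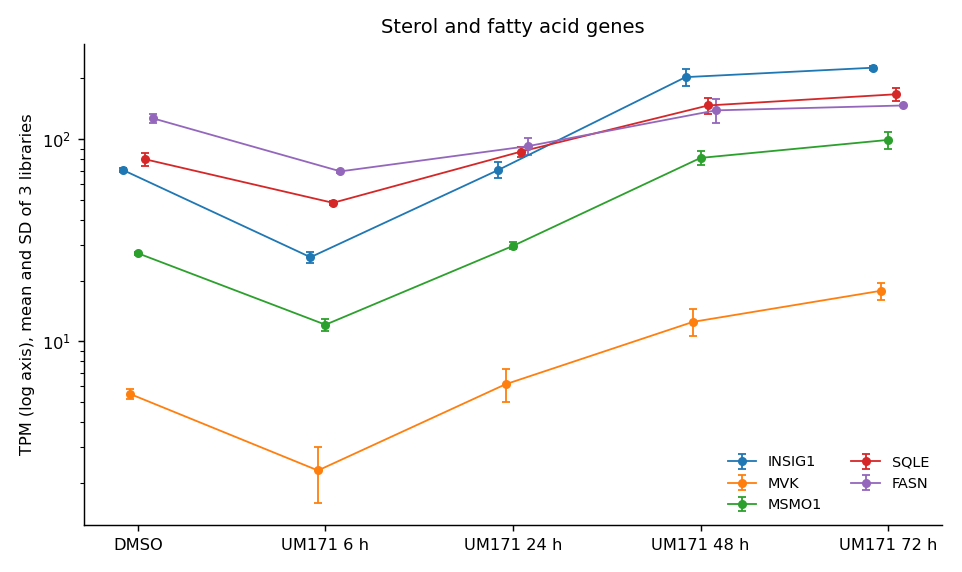
Mean TPM with the SD of 3 libraries, on a log axis, for 5 genes of cholesterol and fatty acid synthesis in DMSO and after UM171 for 6, 24, 48 and 72 h, with points of a group shifted sideways for legibility. Every line is lower at 6 h than in DMSO, INSIG1 at 26.1 against 70.5 TPM, and every line is higher at 24 h than at 6 h.

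The promoters of INSIG1, MSMO1 and MVK, from the RefSeq table, are shown because they hold CCAAT boxes, a motif searched after these sequences were seen. Each is the 250 bases before the start, on the plus strand of GRCh38.p14, with capitals for CCAAT boxes (read as ATTGG on the other strand), the E-box CACGTG and the TATA box. INSIG1 lies at chr7:155297628-155297877, MSMO1 at chr4:165327419-165327668 and MVK at chr12:109573544-109573793.
INSIG1: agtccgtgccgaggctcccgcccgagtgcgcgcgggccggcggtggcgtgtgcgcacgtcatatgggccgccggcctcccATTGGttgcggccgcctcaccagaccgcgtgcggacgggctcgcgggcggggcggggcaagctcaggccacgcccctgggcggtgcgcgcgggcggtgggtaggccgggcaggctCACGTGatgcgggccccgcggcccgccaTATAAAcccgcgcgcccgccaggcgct
MSMO1: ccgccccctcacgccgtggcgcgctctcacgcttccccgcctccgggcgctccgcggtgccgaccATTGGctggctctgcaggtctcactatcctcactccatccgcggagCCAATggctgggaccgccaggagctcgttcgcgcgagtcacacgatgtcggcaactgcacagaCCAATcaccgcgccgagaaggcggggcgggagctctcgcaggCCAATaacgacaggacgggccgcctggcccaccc
MVK: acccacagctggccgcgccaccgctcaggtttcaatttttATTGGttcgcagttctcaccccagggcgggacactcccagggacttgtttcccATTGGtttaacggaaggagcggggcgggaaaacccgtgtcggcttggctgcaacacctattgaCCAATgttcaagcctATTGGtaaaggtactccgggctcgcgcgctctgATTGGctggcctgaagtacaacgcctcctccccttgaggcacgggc

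MSMO1 held 4 CCAAT boxes, MVK 5 and INSIG1 1 beside its E-box and TATA box. Over the 11356 tested genes with a promoter entry 34.9% held at least 1 CCAAT box and 4.59% held 3 or more. In the cholesterol list 16 of 21 promoters held at least 1 (76.2%) and 6 held 3 or more (28.6%). The list contains genes that did not fall, so this is a property of the pathway's promoters and carries no test of the response.

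The other falls were scattered over roles. C3AR1, the receptor of complement fragment C3a, fell from 19.0, 17.6 and 17.9 TPM to 7.17, 6.93 and 6.33 TPM (log2 fold change -1.58, SE 0.13), and GPR35 by 1.2 on the log2 scale. NCF1, which encodes the p47 subunit of the phagocyte oxidase, fell from 125, 127 and 117 TPM to 55.8, 56.9 and 54.5 TPM (log2 fold change -1.31, SE 0.06). NCF1B and NCF1C are near-identical copies that fell with it (-1.54 and -1.28), and the 3 cannot be separated with confidence in these counts. PER1, a clock gene, fell by 1.35, the glutathione-degrading enzyme CHAC1 by 1.27, the corepressor TLE3 by 1.22, the insulin receptor substrate IRS2 by 1.21 and the mRNA decay factor ZFP36 by 1.09. U2AF1 was called lower from 80.0, 52.3 and 49.9 TPM to 27.5, 33.0 and 25.7 TPM, and its reads may be split with a copy in the reference. Among called genes the largest losses in TPM were those of NHERF1, IRF2BP2, VASP, NCF1 and FASN. NHERF1, a scaffold under the membrane, fell from 227, 216 and 219 TPM to 145, 105 and 120 TPM (log2 fold change -1.06, SE 0.07). IRF2BP2 fell from 208, 192 and 198 TPM to 108, 96.8 and 106 TPM (-1.08, SE 0.04), and VASP, an actin regulator, from 161, 160 and 161 TPM to 82.5, 88.7 and 93.0 TPM (-1.02, SE 0.08). SLC16A3, the lactate exporter, fell from 92.6, 103 and 102 TPM to 50.3, 60.2 and 57.6 TPM (-1.03, SE 0.09).

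Levels of some of these genes in PROCR-edited cells kept in DMSO are given beside them. In replicate 1 of those edited cells mitochondrially encoded genes took 35.93% of the counts, against 8.09% and 8.74% in replicates 2 and 3, and it had the lowest level of each gene given here. NCF1 was at 26.3, 60.9 and 61.4 TPM in the 3 edited libraries and VASP at 21.8, 82.4 and 83.7 TPM. FOS was at 10.6, 23.5 and 23.4 TPM and ZFP36 at 14.2, 30.7 and 30.7 TPM. Without replicate 1 these levels lay below those of the DMSO libraries used here for all 4 genes. Against the 6 h libraries they were higher for NCF1, FOS and ZFP36 and overlapped for VASP. The edited cells differ from the DMSO libraries used here in guide and in labelled time, and the part of either in these falls was not tested.

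Lists of growth and housekeeping functions had negative medians without a gene passing both limits. Of 29 tested MYC and ribosome biogenesis genes 27 were lower at an adjusted p under 0.05 and none was called, with a median log2 fold change of -0.46. NOP56, a core protein of box C/D RNA complexes, lay at 554, 570 and 563 TPM against 465, 463 and 453 TPM (log2 fold change -0.52, SE 0.04). For 25 tested heat shock proteins and chaperones the median was -0.40, with HSPA8 at 3174, 3316 and 3288 TPM against 2363, 2296 and 2342 TPM (log2 fold change -0.69, SE 0.06). It was -0.28 for 31 genes of DNA replication, -0.32 for 37 proteasome subunits and -0.16 for 80 cytosolic ribosomal proteins. With total count scaling these medians shift upward, to -0.28 for MYC and ribosome biogenesis, -0.22 for the chaperones, -0.10 for DNA replication and 0.02 for the ribosomal proteins, so that among these the direction of the last turns. These genes are abundant, and the median of all genes over 100 TPM was -0.25. The 30 tested genes of G2 and mitosis had a median of -0.02 and the 30 tested genes of detoxification of reactive oxygen one of -0.09, with no call in either, and both turn positive with total count scaling (0.16 and 0.10).

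**Figure D5:**
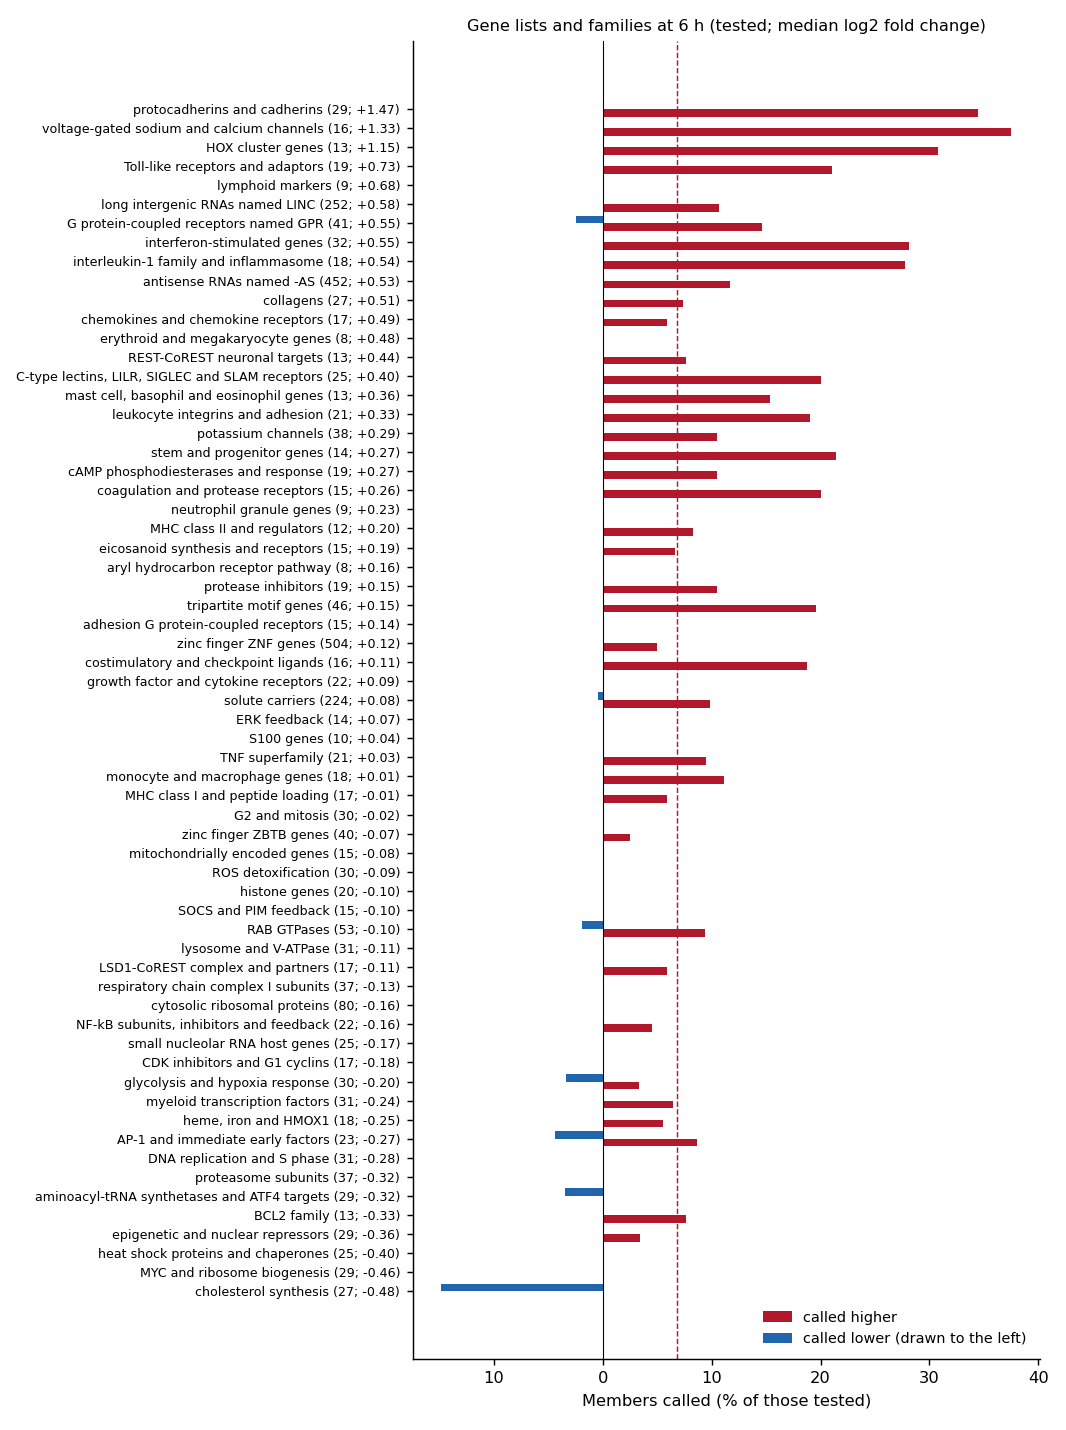
Bars give the share of tested members called higher (red, to the right) and lower (blue, drawn to the left) for each list and gene family with at least 8 tested members, ordered by median log2 fold change, with the number tested and that median in brackets. The dashed line marks the 6.78% of all genes called higher. Cholesterol synthesis stands at the bottom with 14.8% lower, and protocadherins and cadherins at the top with 34.5% higher.

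Of the 45 lists 26 had at least 1 higher gene, 4 had at least 1 lower gene and 17 had neither. The lists with no call included the receptors of growth factors and cytokines (22 tested), ERK feedback genes (14 tested), SOCS and PIM genes (15 tested), S100 genes (10 tested), granule proteins of neutrophils (9 tested) and the aryl hydrocarbon receptor pathway (8 tested).

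The higher genes differed in what followed. RAB39B had 2.51, 2.90 and 5.0 mean TPM at 24, 48 and 72 h, close to its 6 h level. CD22 reached 2.53, 8.75 and 16.1 TPM, LY96 22.0, 31.4 and 59.1 TPM and JAKMIP2 7.07, 15.2 and 22.9 TPM, above their 6 h levels. TLR3 was at 0.533, 0.133 and 0.140 TPM, NLRC4 at 0.967, 0.653 and 0.653 TPM and CD84 at 33.9, 27.9 and 32.7 TPM, below their 6 h levels. MT1E was at 90.5, 52.9 and 34.8 TPM and HLA-DMB at 4.39, 5.24 and 5.81 TPM. Early rises thus included genes whose later levels were higher, similar and lower than at 6 h.

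The promoters of the genes called were compared with those of all genes by letters alone. Of the 1124 higher genes 812 had an entry, with a median GC content of 62.0% against 64.4% over 11356 promoters. The GFI1 core AAATCA stood in 10.1% of the 812 and in 6.54% of all, the CEBP motif TTGCNNAA in 8.74% and 6.14%, the NF-kB motif in 2.34% and 1.36%, and the AP-1 motif TGANTCA in 5.67% and 4.09%. The TATA box TATAAA stood in 7.27% and 5.72%, and the ETS motif GAGGAA in 25.1% and 23.4%. The cAMP response element TGACGTCA was found in 1.11% and 2.78%, the E-box CACGTG in 6.16% and 8.81% and the AHR core GCGTG in 35.0% and 44.8%. The CCAAT box stood in 33.5% and 34.9%. Both strands were searched. None of the differences was tested, and a match is not evidence that a factor binds.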

How the data were processed

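Poly(A) RNA-seq of OCI-AML5 was compared between 3 libraries of each group, DMSO and 6 h of UM171. The files deposited by the authors hold an RSEM table per library, with expected counts that are not normalized and ambiguous reads apportioned among genes. Beside them stand deposited TPM values, scaled to effective length and to an equal sum per library, and a transcript length, another column that served only as a covariate. Per the submitters' processing notes, CASAVA 1.8.2, Trimmomatic 0.35, STAR 2.5.1b and RSEM 1.2.28 were used on GRCh38, whereas the study's methods name kallisto and sleuth. Pseudoautosomal genes listed for both sex chromosomes (45 on Y) were added together, leaving 58174 gene identifiers. Symbols and coordinates are from GENCODE on the same build.

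Expected counts were rounded and tested with edgeR 4.0.16 in R 4.3.3 (filterByExpr, TMM, glmQLFit and glmQLFTest, Benjamini-Hochberg adjustment). The fit held 15 libraries of the time course without a replicate term, and a gene was called at an adjusted p under 0.0001 and over 2-fold, limits taken from the study. Standard errors were derived from each gene's F statistic and its log2 fold change. The common biological coefficient of variation was 0.0564. The fit was first tested on simulated data. A floor of 3 counts and other precision statements cover counting error only. As alternatives, limma 3.58.1 on log2(TPM + 1) and DESeq2 1.42.0 were run, with other scalings, filters, thresholds, sets of libraries and covariate offsets (smoothing span 0.3), the replicate number as a block, and leaving out each library. Figures used matplotlib.

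The comparison, the 45 gene lists, the 20 families and the naming rules were chosen with earlier results of these data known. Of 1085 list entries 1081 matched an identifier. Genes were named when they were examples in the study, were among the 10 largest rises or falls whose libraries did not overlap and whose mean log2 CPM exceeded 2, led a list, gained or lost most TPM, rose from at most 3 counts, or belonged to LSD1-CoREST. Further genes were named after their values were seen. Some genes that meet these rules are not reported here.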

Additional observations from a re-analysis of the deposited data

How the results depend on the processing

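Against 1124 higher and 41 lower genes, limma on log2(TPM + 1) gave 580 and 7, limma on log2(TPM + 0.1) 12 lower, upper quartile scaling 26 lower and total count scaling 18 lower. No filter on low counts gave 111 lower, transcript length offsets 77 lower, and offsets on expression level, added after seeing the data, 623 higher and 131 lower. An adjusted p under 0.05 gave 5273 and 5028 genes with no minimum change and 1960 and 112 over 2-fold, and a test against 1.5-fold gave 1888 and 233. The causes were not tested, apart from the looser limits and the added genes tested without a filter. All other settings stayed within 1.5 times. DESeq2 gave 1140 and 45, and leaving out single libraries gave 952 to 969 higher and 35 to 46 lower. Deviations of libraries with the same replicate number correlated at 0.18, -0.05 and 0.08 across genes, and those with different numbers at -0.2 to 0.15. With 3 libraries a group this cannot settle whether the numbers pair the libraries. A replicate block gave 1061 higher and 40 lower (874 and 41 in a fit of 6 libraries, 878 and 44 with GC content offsets). All 62 called genes among the 80 named kept their direction in every setting that tested them, and the most calls were lost with limma on log2(TPM + 1), where 25 of them fell short of the limits. With 3 libraries a group, genes under about 1 TPM rest on few counts.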
